A study of Gossypium hirsutum with 120 samples.

Results

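The foliar nectary of upland cotton (Gossypium hirsutum, line TM-1) was compared between the end and the start of its life, as 3 post-secretory against 2 pre-secretory RNA samples, which are 5 of the 51 RNA samples of the study's RNA-seq table. The members were chosen by tissue and stage alone, from the sample records. Pre-secretory nectaries were cut from young leaves with a midvein of 5 to 6 cm and carried no visible nectar. Post-secretory nectaries came from fully mature leaves that no longer held nectar, and a single secretory RNA sample, from leaves with a midvein of 12 to 15 cm and visible nectar, gives an unreplicated midpoint. Leaf tissue next to the nectary was sampled at the same stages, with 2 pre-secretory, 1 secretory and 3 post-secretory RNA samples. All plants were untreated, grown in chambers, and sampled after first bloom, and each RNA sample was a pool of excised nectaries or leaf pieces, so that it holds the vein, ground tissue and epidermis around the secreting cells as well. Nothing states that the replicates came from separate plants. The p-values then measure only spread between RNA samples, which was estimated over all 51 of them and not over the foliar ones alone.

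The foliar nectary lies on the lower side of the midrib, where multicellular papillae stand in a shallow pit and release a sugary fluid that feeds ants and other predators of herbivores. In nectaries at large, sucrose arrives through the phloem or from starch, leaves the parenchyma through SWEET carriers, and is cleaved outside the cell by cell wall invertase, with proton pumps and water channels of the plasma membrane as likely partners. A leaf nectary is also a piece of a growing leaf. Cell division and expansion end, the cuticle and wall are finished, and programs of the mature and ageing leaf follow, so the age of the leaf and the state of secretion cannot be told apart within the nectary samples. The leaf beside the nectary, which ages without secreting, was therefore tested for the same change. It is a different mix of cells, with higher sums of mesophyll and xylem markers than the nectary before secretion. The part of this mix in any difference between the tissues was not tested.

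The normalized value used throughout is the deposited value, with both sequencing runs of an RNA sample summed, divided by an upper-quartile factor that brings samples to a common scale. Totals of the deposited values were 10910606 and 9796605 in pre-secretory replicates 1 and 2, and 7633887 to 8683892 in the post-secretory samples. These values behave as if scaled for gene length and rounded and are not plain read counts, so the depth behind a value is unknown. Changes are differences of log2(value + 1), post-secretory minus pre-secretory, and understate the change of genes with low values. Over all genes tested, the pre-secretory pair correlated at Pearson r = 0.893 and post-secretory pairs at 0.924 to 0.943, against 0.667 to 0.787 between the stages, a correlation across genes, which are not independent replicates. Pre-secretory replicate 2 had 20.8% of its total in 5 entries, against 3.67% in replicate 1.

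Of 45337 cotton genes tested, 6084 were called, meaning a limma adjusted p (Benjamini-Hochberg) under 0.05 with 1.5-fold or more between stages. They were 13.4% of the genes, with 1866 that rose (4.12%) and 4218 that fell (9.3%), and the median change over all genes was 0.08. Under scaling by the column total the same contrast gave 2588 rises and 3209 falls, with the median over all genes at 0.44, so the number of falls for each rise depends on the scaling. Changes of at least 4-fold were held by 947 of the rises and 3132 of the falls. The values of both stages did not overlap in 6062 of the called genes, as they did not in 53.99% of all genes tested. Lack of overlap was also a condition for choosing most genes named below, so for them it is no separate result. Without pre-secretory replicate 1 the count fell to 1560 (267 rises, 1293 falls), with the lone pre-secretory sample assumed to vary like the other groups. With each of the 5 nectary samples left out in turn, 1376 genes kept their call, 197 that rose and 1179 that fell. A gene named below kept its call in all 5 of these fits unless its paragraph says otherwise.

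The secretory sample lay between the means of both stages in 5409 of the 6084 called genes (88.91%). It stood nearer to the post-secretory mean, on the log2 scale, in 56.11% of the rises and 48.93% of the falls. The midpoint sample thus held an intermediate value for most called genes, with no replicate to give it an error. Called genes were selected for stage means that lie apart, which by itself favours a value between them. The share over all genes tested is not given here, so no conclusion is drawn from this one. Further down, where it is given, its value is printed after the pre-secretory and before the post-secretory values.

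Falls took the largest shares in lists of cell division, gibberellin-regulated peptides, GDSL and lipid transfer proteins, terpene synthesis, expansins and flavonoids. Rises exceeded falls in the lists of WRKY, NAC and abscisic acid genes and of sugar and amino acid carriers. The lists are rules on the description of each gene, were chosen with earlier results of these data known, and were given no test of their own, so their counts are read against the 9.3% of all genes that fell and the 4.12% that rose. Of the 35 list counts of 10 or more calls in 1 direction, 0 stayed within 1.5 times of the full count without that replicate, against 24 to 26 without any other nectary sample. Counts without it are given beside the main lists.

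**Figure D1:**
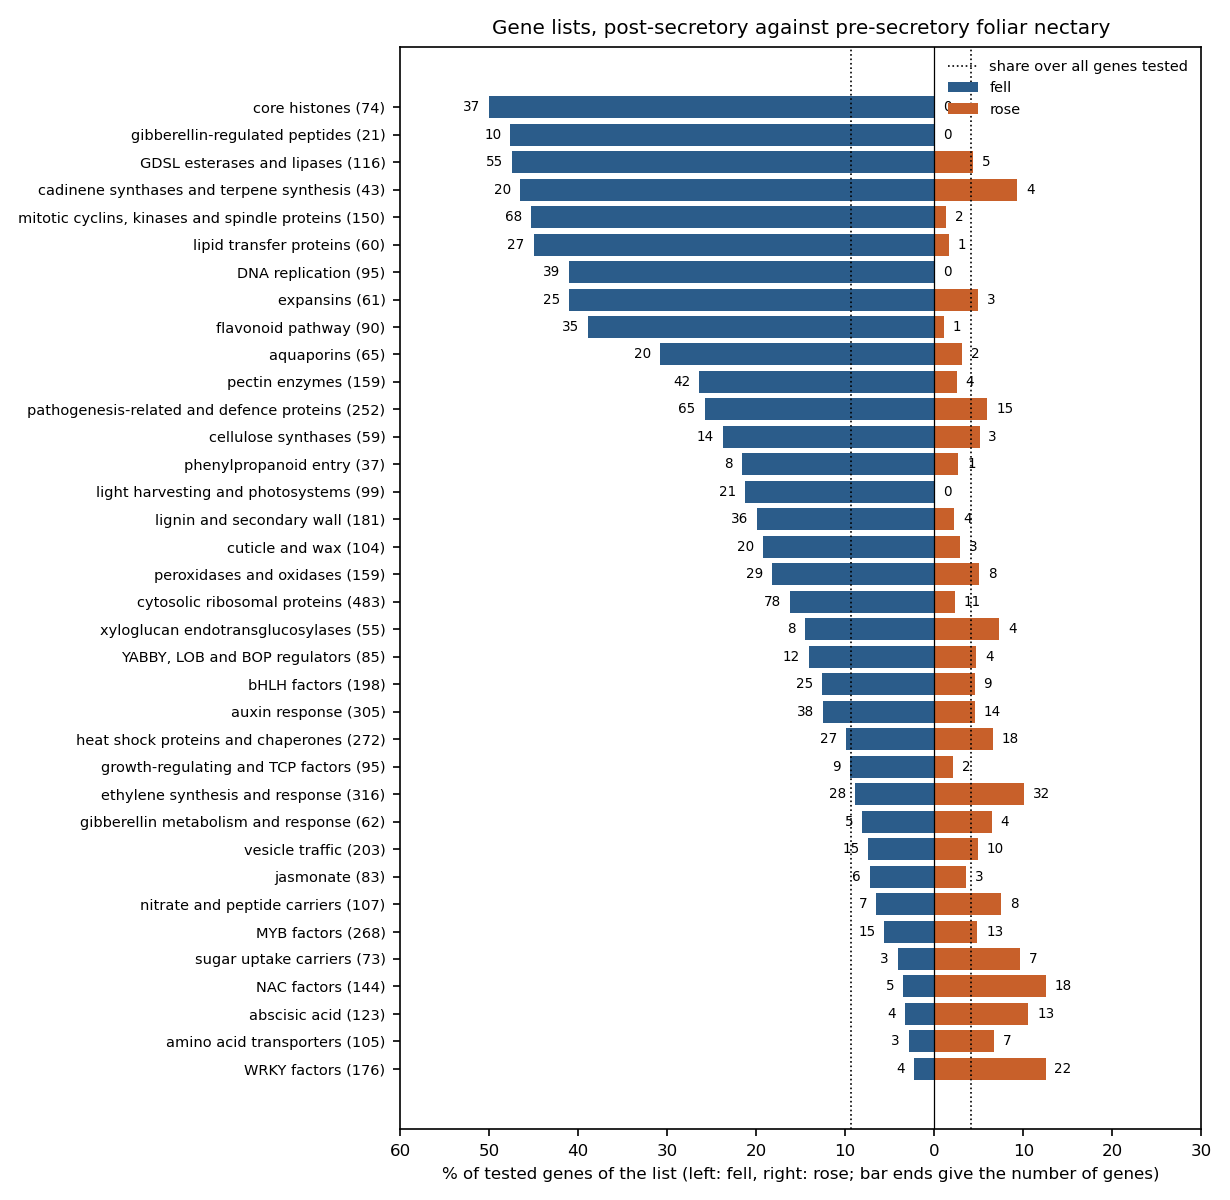
Share of the tested genes of each list that fell (left, blue) or rose (right, orange) in the post-secretory foliar nectary, in % of the list's tested genes, whose number stands in parentheses; bar ends give the number of genes and the dotted lines the share over all genes tested, 9.3% and 4.12%. Lists with 9 or more called genes are drawn; 37 of 74 core histone genes and 55 of 116 GDSL genes fell, and 22 of 176 WRKY genes rose.

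The machinery of cell division was lower after secretion than before it. Core histones, around which new DNA is wrapped, fell in 37 of 74 genes tested and rose in none, with a median of -1.49. Genes of DNA replication fell in 39 of 95 (median -1.88), and mitotic cyclins, kinases and spindle proteins in 68 of 150 with 2 rises (median -2.11). The falls were 24, 20 and 40 without pre-secretory replicate 1. The adjacent leaf gave 36, 46 and 83 falls for the same lists.

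A histone H3.2-like gene (LOC107907273), whose protein packages newly made DNA, had values of 24803 and 6191 in pre-secretory replicates 1 and 2, 535 in the secretory sample and 104, 48.3 and 20.3 in post-secretory replicates 1, 2 and 3. Every post-secretory sample was far below both pre-secretory ones (-8.01, SE 1.09, limma adjusted p = 3.16e-06). A histone H2B-like gene (LOC107889079) went from 6374 and 2092 through 312 to 35.5, 9.99 and 2.65. The H2B gene shows the same pattern, with pre-secretory replicate 1 the higher of the pair (-8.33, SE 0.83, adjusted p = 1.14e-08). A subunit of replication protein A (LOC107949785), which binds single-stranded DNA during copying, stood at 217 and 74.9, then 19.0, then 0, 1.66 and 0 (-6.53, SE 0.81, adjusted p = 6.16e-07). Thymidine kinase (LOC107922966), which supplies a DNA building block, went from 532 and 148 to 50.4 and then 5.07, 10.8 and 0. Histone genes form families of near-identical copies, among which the deposited values may have been split.

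Summed over the list of mitosis, the value was 48041 and 19737 before secretion, 7418 during it and 5391 to 6420 after it. Much of the pre-secretory sums came from a single entry, described as a histone H3-like centromeric protein (XP_016690579.1). It had 30656 and 6949 before secretion, 705 during it and 143, 82.4 and 30.0 after it. Its Arabidopsis match is that of the histone H3.2-like gene above, so these sums do not measure mitotic genes alone. A G2/mitotic-specific cyclin (LOC107943725), which drives entry into mitosis, was at 171 and 164 before secretion, 9.91 during it, and is listed at 0 in all 3 post-secretory samples (adjusted p = 2.09e-07). KNOLLE-like syntaxin (LOC107918332), which fuses vesicles into the new cell plate, had values of 378 and 192, then 11.6, then 4.23, 0 and 0 (-7.28, SE 1.04, adjusted p = 5.88e-06). A microtubule-binding protein of the EB1 family (LOC107932538) went from 745 and 395 to 27.2 and is listed at 0 after secretion. For these 3 genes the secretory sample was already at a small part of the pre-secretory level.

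Where the higher stage averaged 100 or more, the largest fall belonged to an ornithine decarboxylase-like gene (LOC107926754). Ornithine decarboxylase makes putrescine, the first polyamine, and is tied to growing tissue. Its values were 6934 and 2251 before secretion, 335 in the secretory sample, and 2.54, 0.83 and 0 afterwards (-11.05, SE 0.99, limma adjusted p = 1.31e-09), and the adjacent leaf changed by -8.47 (adjusted p = 8.81e-08).

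Cytosolic ribosomal proteins fell in 78 of 483 genes and rose in 11, with a median of -0.77. Their summed value was 936304 and 419497 in pre-secretory replicates 1 and 2, 246703 in the secretory sample and 293720 to 462509 in the post-secretory samples. The sums of both stages thus overlapped, and the secretory sum lay below all of them. Only 2 of the falls kept their call with each sample left out. For example, the 40S protein S16-like gene (LOC107934105) went from 1197 and 400 to 121, 61.6 and 68.8, and its call was lost without pre-secretory replicate 1 (adjusted p = 0.162). The pre-secretory samples thus differed between themselves in these genes. The same holds in part for division, where the summed value of the core histones was 317206 and 126074 before secretion, and 48966 to 70592 after it. The secretory histone sum, 43645, was also below those of both stages.

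Among regulators of leaf growth, the lists of growth-regulating and TCP factors (9 of 95 fell, 2 rose) and of YABBY, LOB and BOP regulators (12 of 85 fell, 4 rose) lay near the share of all genes. None of these calls survived every omission of a sample. TCP20-like (XP_016747943.1), a factor of the class that acts on growth and division genes, rose from 51.6 and 86.4 to 376, 311 and 414, and without pre-secretory replicate 1 its adjusted p was 0.0834. LOB domain-containing protein 21-like (LOC107936336) went from 2778 and 1089 to 227, 142 and 238, with an adjusted p of 0.143 without that replicate.

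**Figure D2:**
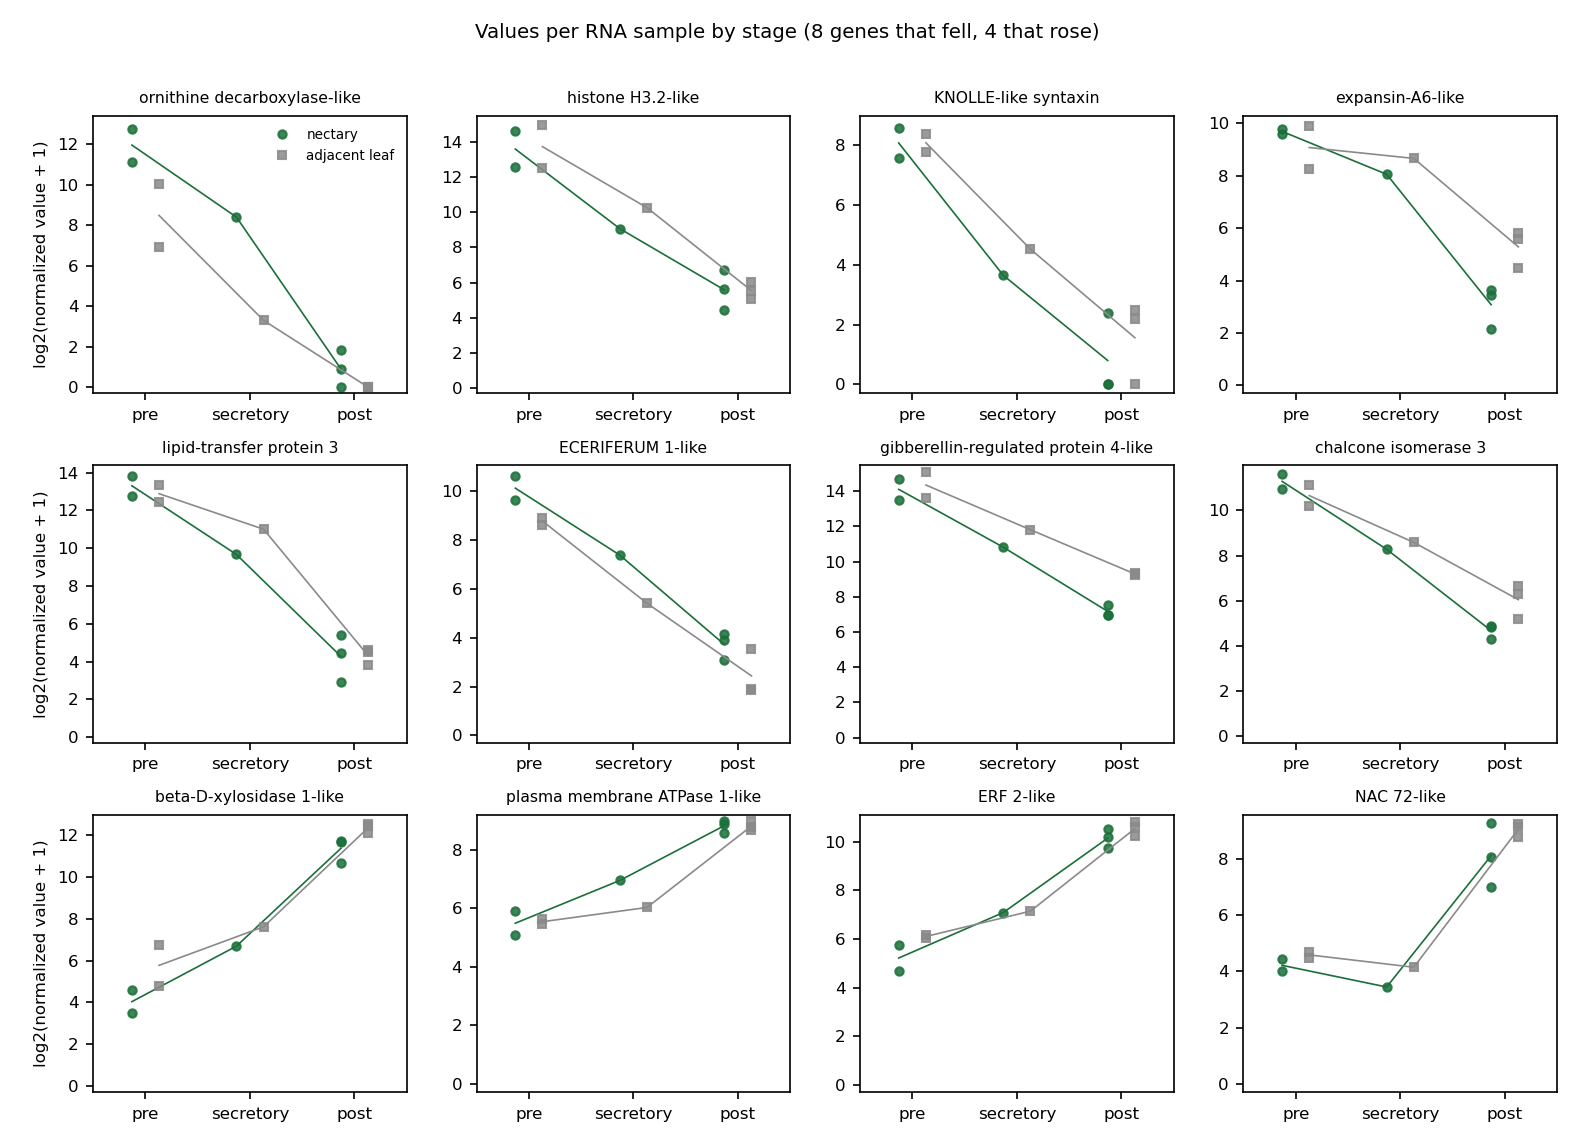
Values of 12 named genes in each RNA sample, as log2(normalized value + 1), at the pre-secretory (2 samples), secretory (1 sample) and post-secretory (3 samples) stages of the foliar nectary (green circles) and the adjacent leaf (grey squares); lines join the means of the points. The 8 genes of the upper rows fell and the 4 of the bottom row rose, without overlap of the nectary stages, as the naming rule requires. The leaf moves the same way.

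Expansins, which loosen walls so that cells can enlarge, fell in 25 of 61 genes and rose in 3 (median -2.16). Pectin enzymes fell in 42 of 159 and rose in 4, cellulose synthases in 14 of 59 with 3 rises, and lignin and secondary wall genes in 36 of 181 with 4 rises. Xyloglucan endotransglucosylases, which cut and rejoin wall polymers, split into 8 falls and 4 rises among 55. Without pre-secretory replicate 1 the falls were 13 for expansins, 16 for pectin enzymes, 5 for cellulose synthases, 16 for lignin genes and 4 for xyloglucan endotransglucosylases. Markers of xylem, whose walls are lignified, moved with these lists. Of 40 xylem markers 11 fell and none rose (median -1.49), and their summed value was 500 to 1208 before secretion, 845 during it and 158 to 346 after it, with the leaf going from 1569 to 1772 down to 118 to 347. Their part in the result was not tested.

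Expansin-A6-like (LOC107898833) had values of 888 and 767 before secretion, 265 during it and 3.38, 9.99 and 11.5 after it (-6.61, SE 0.90, limma adjusted p = 2.84e-06). On the log2 scale, the secretory value of this gene was closer to the pre-secretory samples than to the post-secretory ones. A pectinesterase (XP_016750193.1), which removes methyl groups from pectin, went from 462 and 363 to 28.1 and then 11.8, 3.33 and 4.41 (-5.94, SE 0.75, adjusted p = 8.7e-07). A putative cell wall protein (XP_016690584.1) fell from 15544 and 4298 through 315 to 22.0, 9.99 and 10.6 (-9.16, SE 1.32, adjusted p = 7.1e-06). All post-secretory values of these 3 genes lay below the secretory value.

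Other wall enzymes were among the largest rises. A beta-D-xylosidase 1-like gene (LOC107926474), of a family that trims xylan and arabinan side chains, stood at 10.3 and 22.9, then 102, then 3424, 3297 and 1639 (7.33, SE 1.25, adjusted p = 7.8e-05). The leaf rose by 6.58 for the same gene, and there the secretory sample was also intermediate, at 196. A second beta-D-xylosidase 1-like gene (LOC107915099) rose from 12.9 and 10.6 to 8839, 2423 and 108, a range so wide that the call was lost in 4 of the 5 fits with a sample left out. Xyloglucan endotransglucosylase 30 (LOC107930656) rose from 0.86 and 13.2 to 342, 480 and 336 (6.21, SE 1.15, adjusted p = 0.000217), and without pre-secretory replicate 1 its adjusted p was 0.0529. EXORDIUM-like 3 (LOC107910941), a wall-located protein family linked to growth, had values of 0 and 93.4 before and 1296, 792 and 1539 after secretion, and an adjusted p of 0.433 without the same replicate.

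GDSL esterases and lipases, a family that includes the enzymes joining cutin monomers, fell in 55 of 116 genes and rose in 5 (median -2.05). Lipid transfer proteins, small secreted carriers of lipids, fell in 27 of 60 and rose in 1 (median -1.56), and genes of cuticle and wax synthesis fell in 20 of 104 and rose in 3 (median -0.40). The falls were 33, 13 and 12 without pre-secretory replicate 1. In the adjacent leaf 55, 25 and 28 genes of these lists fell.

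Non-specific lipid-transfer protein 3 (LOC107928594) had values of 14650 and 6952 before secretion, 812 during it and 41.4, 6.66 and 21.2 after it (-9.03, SE 0.83, limma adjusted p = 2.09e-09). A GDSL gene whose Arabidopsis match is AT1G29660 (LOC107907357) went from 3666 and 1259 through 182 to 0.85, 0.83 and 0 (-10.48, SE 1.20, adjusted p = 1.62e-07). The second gene with that match, LOC107907502, had 4074 and 1279 before and 4.23, 0.83 and 0.88 after secretion. Where the higher stage averaged 100 or more, 4 of the 8 largest falls were GDSL genes.

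ECERIFERUM 1-like (LOC107900564), of a family that makes wax alkanes, stood at 1564 and 785, then 165, then 16.9, 7.49 and 14.1 (-6.39, SE 0.61, adjusted p = 3.41e-09). Cytochrome P450 77A4-like (LOC107900179), of a family that oxidizes fatty acids for cutin, went from 193 and 130 to 11.6 and then 0.85, 0 and 2.65. A SHINE 2 factor (LOC107949342), of a family that switches on cuticle genes, went from 169 and 67.0 to 8.26 and is listed at 0 after secretion. Its adjusted p was 0.00117, and 0.0559 without pre-secretory replicate 1.

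Of the genes the study names for nectar, SWEET9, CWINV4, a nitrite reductase and a long-chain acyl-CoA synthetase were taken, and its others were not treated in this way. These, and SWEET10, which its text does not name, were summed over all genes with the same best Arabidopsis match. In a fit on such sums 21.4% of 14133 matches were called, 8.18% higher and 13.2% lower. The sum for the match of SWEET10 (AT5G50790, 6 cotton genes by leading entry), a sucrose exporter, was 2564 and 242 before secretion, 1163 in the secretory sample and 697, 1491 and 302 after it. These values overlap fully, and the change was -0.21 (SE 1.07, limma adjusted p = 0.911). The leaf beside it rose for the same sum, from 62.0 and 99.8 to 314, 1037 and 627 (2.89, SE 1.07, adjusted p = 0.0473), but the difference between the tissues was not called (-3.10, SE 1.51, adjusted p = 0.923). The sum for SWEET9 itself (AT2G39060, 2 cotton genes) is listed at 0 in all 12 foliar samples. The study, in contrast, reports SWEET9 expression well above that of CWINV4 at the secretory stage of its extrafloral nectaries, the foliar one included. The 0 holds only for entries with that Arabidopsis match, and which entries the study counted as SWEET9 was not checked. It is therefore not read as absence of SWEET9 from the foliar nectary.

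The match of the cell wall invertase CWINV4 (AT2G36190, 5 cotton genes) stood at 935 and 311, then 231, then 107, 192 and 60.5. All post-secretory samples were below the secretory one, but the drop was not called (-2.32, SE 1.16, adjusted p = 0.149). In the adjacent leaf the sum stayed between 4.86 and 35.5. Nitrite reductase (AT2G15620), which feeds nitrogen into amino acids, had 506 and 512 before and 372, 429 and 250 after secretion (-0.57, adjusted p = 0.421). A long-chain acyl-CoA synthetase (AT4G23850) had 531 and 542 before and 818, 841 and 704 after it (0.55, adjusted p = 0.164), while the leaf rose by 1.57 (adjusted p = 8.08e-05).

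**Figure D3:**
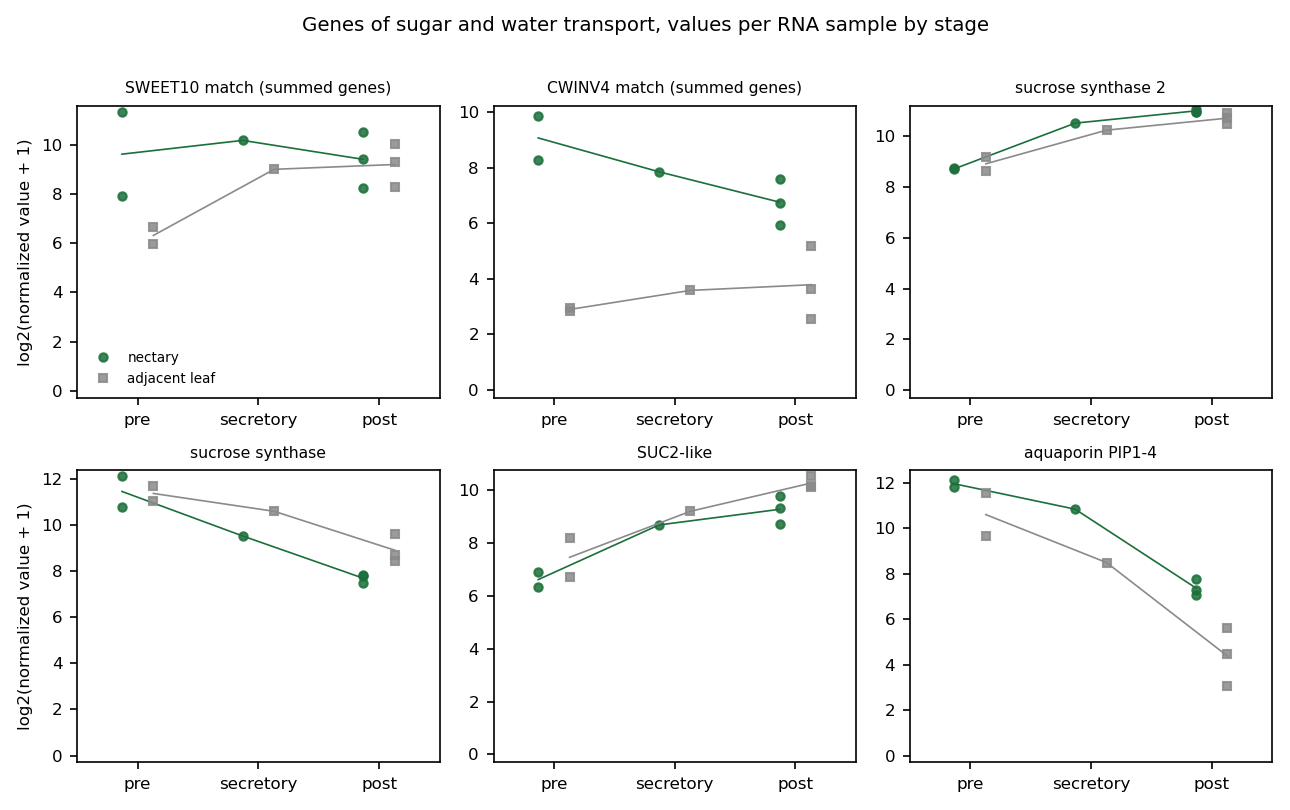
Values of genes of sugar and water transport in each RNA sample, as log2(normalized value + 1), by stage, for the foliar nectary (green circles) and the adjacent leaf (grey squares); lines join the means. The SWEET10 and CWINV4 panels are sums over cotton genes with that Arabidopsis match; CWINV4 is higher in every nectary sample (60.5 to 935) than in every leaf sample (4.86 to 35.5), and the SWEET10 values of both nectary stages overlap.

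Across whole families, SWEET transporters fell in 3 of 44 genes and rose in none, and invertases fell in 4 of 34 with no rise. Both are near or below the share of all genes. The SWEET17-like gene (LOC107896696), of a type that moves fructose across the vacuole membrane, went from 308 and 162 through 57.0 to 9.30, 14.2 and 7.05 (-4.38, SE 1.13, limma adjusted p = 0.0072), and lost its call without pre-secretory replicate 1 (adjusted p = 0.153). All 4 invertases that fell are described as acid beta-fructofuranosidases, the name of acid invertases, for example XP_016665407.1 with 96.3 and 161 before and 2.54, 5.83 and 7.93 after secretion. Its call was lost in 3 of the 5 fits with a sample left out.

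Sucrose synthases, which cleave sucrose inside the cell, went in opposite directions. One gene (XP_016750206.1) fell from 4575 and 1754 through 741 to 177, 226 and 220 (-3.77, SE 0.49, adjusted p = 1.5e-06). Sucrose synthase 2 (XP_016693358.1) rose from 408 and 423 to 1440 in the secretory sample and 2123, 1965 and 1953 after it (2.27, SE 0.36, adjusted p = 3.33e-05). In the leaf these genes changed by -2.47 and 1.79.

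Carriers that load or take up sugar rose in 7 of 73 genes and fell in 3, and none of these 10 calls was kept without pre-secretory replicate 1. SUC2-like (LOC107910491), the sucrose loader of phloem companion cells, rose from 79.1 and 118 to 408, and then to 418, 871 and 639 (2.66, SE 0.58, adjusted p = 0.0014). Sugar transport protein 13 (LOC107928606), a monosaccharide importer, went from 12.9 and 45.0 to 135, 407 and 82.9. Without pre-secretory replicate 1 both calls were lost, with adjusted p of 0.0662 for LOC107910491 and 0.385 for LOC107928606, and the latter was also lost without post-secretory replicate 2. SUC2 marks phloem, and of 38 phloem markers 2 rose and 9 fell (median -1.12). Their summed value was 2433 to 3444 before secretion, 3753 during it and 2781 to 4591 after it, so that the stages overlapped, and their part in the rise of SUC2-like was not tested. Starch breakdown gave 3 rises and 2 falls among 67 genes, and starch synthesis 1 and 3 among 35.

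Plasma membrane proton pumps rose in 4 of 18 genes and fell in 1. A plasma membrane ATPase 1-like gene (LOC107892346), of the pump family that energizes sugar transport, rose from 32.7 and 59.1 through 123 to 512, 475 and 385 (3.34, SE 0.30, limma adjusted p = 1.31e-09). The leaf rose as much for this gene, by 3.28. Another, the ATPase 1-like gene LOC107892354, rose from 84.3 and 97.9 to 356, 376 and 335.

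Water channels went the other way, with 20 falls and 2 rises among 65 aquaporin genes (median -1.10), and 9 falls without pre-secretory replicate 1. PIP1-4 (LOC107889765), a channel of the plasma membrane, had values of 4432 and 3606 before secretion, 1842 during it and 133, 216 and 158 after it (-4.59, SE 0.61, adjusted p = 2.2e-06). For PIP1-4 the secretory sample lay below both pre-secretory samples and above all post-secretory ones. TIP1-3-like (LOC107897797), a channel of the vacuole, stood at 457 and 622, then 179, then 5.92, 13.3 and 3.53 (-6.12, SE 1.15, adjusted p = 0.000253).

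Mature leaves draw down photosynthesis and export nitrogen as they age. Light harvesting and photosystem genes fell in 21 of 99 with no rise (median -1.19; 6 falls without pre-secretory replicate 1), and carbon fixation genes in 4 of 36. Of amino acid transporters 7 rose and 3 fell among 105 (3 of these calls were kept without pre-secretory replicate 1), and of nitrogen assimilation genes 3 rose and 1 fell among 36. Genes of chlorophyll breakdown, autophagy and senescence rose in 7 of 92 and fell in 1, and most of these calls were lost without pre-secretory replicate 1. In either direction 8.7% of this list was called, against 13.4% of all genes.

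Chlorophyll-binding and Rubisco small subunit genes, which mark mesophyll, had a summed value of 47946 to 78975 in pre-secretory nectaries, 74030 in the secretory one and 20330 to 39026 in post-secretory ones. The leaf had 212835 to 222952 before secretion, 323054 in the secretory sample and 37877 to 93306 after it. These sums did not overlap between the pre-secretory and post-secretory stages in either tissue. In these bulk samples fewer cells of a type and less RNA per cell cannot be told apart. A Rubisco small subunit gene (LOC107912727) went from 1698 and 1612 through 457 to 42.3, 160 and 132 (-4.09, SE 1.01, limma adjusted p = 0.00492), and lost its call without pre-secretory replicate 1 (adjusted p = 0.0777).

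Amino acid permease 6-like (LOC107905186), an importer of amino acids at the phloem and xylem, rose from 4.30 and 2.65 through 18.2 to 59.2, 224 and 215 (5.02, SE 1.09, adjusted p = 0.00144). Asparagine synthetase (LOC107891603), which makes the amide in which nitrogen travels, rose from 165 and 82.9 to 1130, 1141 and 478 (2.85, SE 0.49, adjusted p = 8.06e-05), and the secretory sample was at 187. Autophagy-related protein 18a-like (LOC107920831), needed to recycle cell contents, went from 46.4 and 76.7 to 283, 225 and 231 (2.02, SE 0.31, adjusted p = 2.09e-05). All 3 genes rose in the leaf too.

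Isocitrate lyase-like (LOC107887472), the entry enzyme of the glyoxylate cycle that turns lipid into sugar, was at 0.86 and 0 before secretion and 0.83 in the secretory sample. After secretion it stood at 1710, 554 and 11.5 (7.38, SE 1.66, adjusted p = 0.00197). Post-secretory replicate 3 was far below the other two, but still above both pre-secretory samples.

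Gibberellin-regulated peptides, small secreted proteins of expanding tissue, fell in 10 of 21 genes with no rise (median -3.11), and in 3 without pre-secretory replicate 1. Auxin response genes fell in 38 of 305 and rose in 14, and jasmonate genes fell in 6 of 83 and rose in 3. Abscisic acid genes rose in 13 of 123 and fell in 4, and ethylene genes rose in 32 of 316 and fell in 28. Without pre-secretory replicate 1 the abscisic acid list gave 3 rises, the ethylene list 9 rises and 8 falls, and the auxin list 9 falls.

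Gibberellin-regulated protein 4-like (LOC107892384) had values of 26818 and 11597 before secretion, 1806 during it and 126, 124 and 187 after it (-6.94, SE 1.08, limma adjusted p = 2.15e-05). Allene oxide synthase (XP_016739374.1), which starts the jasmonate branch, went from 272 and 207 through 67.7 to 3.38, 4.99 and 9.70 (-5.18, SE 0.39, adjusted p = 2.17e-11). An ACC oxidase 1-like gene (LOC107932117), described as making ethylene, went from 305 and 123 to 4.95 and then 0.85, 0 and 0.88. All 3 genes were lower in every post-secretory sample than in the secretory one.

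Among the rises, the SAUR36-like gene (LOC107893912), an auxin-responsive gene linked in Arabidopsis to leaf senescence, went from 3.44 and 21.2 through 74.3 to 432, 451 and 508 (5.55, SE 0.78, adjusted p = 5.3e-06). The gibberellin receptor GID1B-like (XP_016717238.1) rose from 58.5 and 37.0 to 299, 352 and 96.1 (2.19, SE 0.39, adjusted p = 0.000151). Lea5-D (XP_016700814.1), a late embryogenesis abundant protein of drying and stressed tissue, had the highest level of all named rises, from 1019 and 2666 to 52142, 17865 and 17862. Its adjusted p was 0.0273, and it lost its call without pre-secretory replicate 1 or post-secretory replicate 1, with a highest adjusted p of 0.347.

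Regulatory genes of the NAC and WRKY families, many of which act in senescence and defence, gave 18 rises and 5 falls among 144 NAC genes and 22 and 4 among 176 WRKY genes. Without pre-secretory replicate 1 the rises were 4 and 3, and whether either family differs from all genes was not tested. MYB factors gave 13 and 15 among 268, and bHLH factors 9 and 25 among 198.

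NAC domain-containing protein 72-like (LOC107916817), a stress-responsive activator, stood at 20.6 and 15.0 before secretion, 9.91 in the secretory sample and 618, 269 and 127 after it (3.90, SE 0.51, limma adjusted p = 1.3e-06). The secretory value lay below both pre-secretory ones, so the rise of this gene is seen only in the post-secretory samples. NAC 29-like (LOC107946409), whose Arabidopsis match AT1G69490 is a senescence regulator, went from 21.5 and 26.5 through 73.5 to 787, 693 and 496 (4.71, SE 1.26, adjusted p = 0.00963; 0.128 without pre-secretory replicate 1). ERF 2-like (LOC107953617), an ethylene response factor, rose from 24.9 and 52.9 through 135 to 1482, 1159 and 857 (4.93, SE 1.00, adjusted p = 0.000688). WRKY 23 (LOC107910797) rose from 20.6 and 34.4 to 178 and then 249, 371 and 443, and its adjusted p without pre-secretory replicate 1 was 0.0853.

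PRE6-like (LOC107948112), a small bHLH protein that promotes cell elongation in Arabidopsis, fell from 469 and 369 through 21.5 to 1.69, 3.33 and 5.29 (-6.64, SE 1.08, adjusted p = 3.88e-05). Myb-related protein 308-like (LOC107940858), of a subgroup that represses phenylpropanoid genes, fell from 390 and 761 through 183 to 15.2, 12.5 and 8.82 (-5.40, SE 1.17, adjusted p = 0.0014).

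Flavonoid genes fell in 35 of 90 and rose in 1 (median -1.64; 18 falls without pre-secretory replicate 1), and phenylpropanoid entry genes in 8 of 37 with 1 rise. Chalcone-flavanone isomerase 3 (XP_016754029.1), of the enzyme family that closes the flavonoid ring, had values of 3169 and 1964 before secretion, 309 during it and 28.8, 27.5 and 18.5 after it (-6.61, SE 0.86, limma adjusted p = 1.3e-06). Leucoanthocyanidin dioxygenase (XP_016717110.1), a late enzyme of anthocyanin synthesis, went from 1002 and 971 through 263 to 5.07, 6.66 and 13.2 (-6.82, SE 1.03, adjusted p = 1.43e-05). In the leaf the same genes fell by 4.61 and 5.38.

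Defence proteins fell in 65 and rose in 15 of 252 genes (median -1.03), and without pre-secretory replicate 1 in 35 and 6. Defensin-like protein 1 (LOC107890541), a small antimicrobial peptide, was at 347 and 652 before secretion and is listed at 0 in the secretory and all post-secretory samples (adjusted p = 1.19e-06). Thaumatin-like protein (LOC107924672) went from 468 and 638 through 94.1 to 7.61, 0 and 0.88 (-7.76, SE 1.09, adjusted p = 4.84e-06). Peroxidases and related oxidases fell in 29 of 159 and rose in 8.

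Where the higher stage averaged 100 or more, the largest rise belonged to a defence enzyme as well. A basic vacuolar beta-1,3-glucanase (LOC107892118), which digests fungal wall glucan, rose from 4.30 and 0 through 19.8 to 626, 621 and 211 (7.56, SE 1.16, adjusted p = 1.94e-05). A basic endochitinase (LOC107962567) rose from 0 and 1.76 through 5.78 to 535, 411 and 24.7 (6.75, SE 1.56, adjusted p = 0.00264; 0.0927 without pre-secretory replicate 1). Both genes rose in the leaf, by 6.82 and 6.23.

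The leaf next to the nectary was tested for the same change. In it 7065 genes were called (15.6%), of which 2506 rose (5.53%) and 4559 fell (10.1%), and without leaf pre-secretory replicate 1 the count was 3164. Of the nectary's called genes 61.97% were also called in the leaf, which is 53.36% of the leaf's called genes. Both rose in 1001 genes, both fell in 2764, and 5 went in opposite directions.

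The difference between the tissues was then tested directly, as the change in the nectary minus the change in the leaf. It was called in 61 genes (0.135%), 55 of them lower (0.121%) and 6 higher (0.0132%), and 1821 had an unadjusted p under 0.05. The count ranged from 11 to 87 with a sample left out, the lowest without nectary pre-secretory replicate 1, and 9 genes kept their call in all 10 of these fits. It was 331 with a pseudocount of 10. Same-numbered nectary and leaf samples deviated together after secretion, while the pre-secretory groups, of 2 samples each, cannot show this. With the number as a block of nectary and leaf, the count was 128 as a random effect (19 higher, 109 lower, all 61 among them). As a fixed term it was 26 (4 higher, 22 lower, 15 of the 61 among them). The fixed term leaves 1 complete pair before secretion and 3 after it. In 19 of the 61 the nectary fell and the leaf was not called, in 24 the leaf rose and the nectary was not called, and in 5 the nectary fell while the leaf rose.

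**Figure D4:**
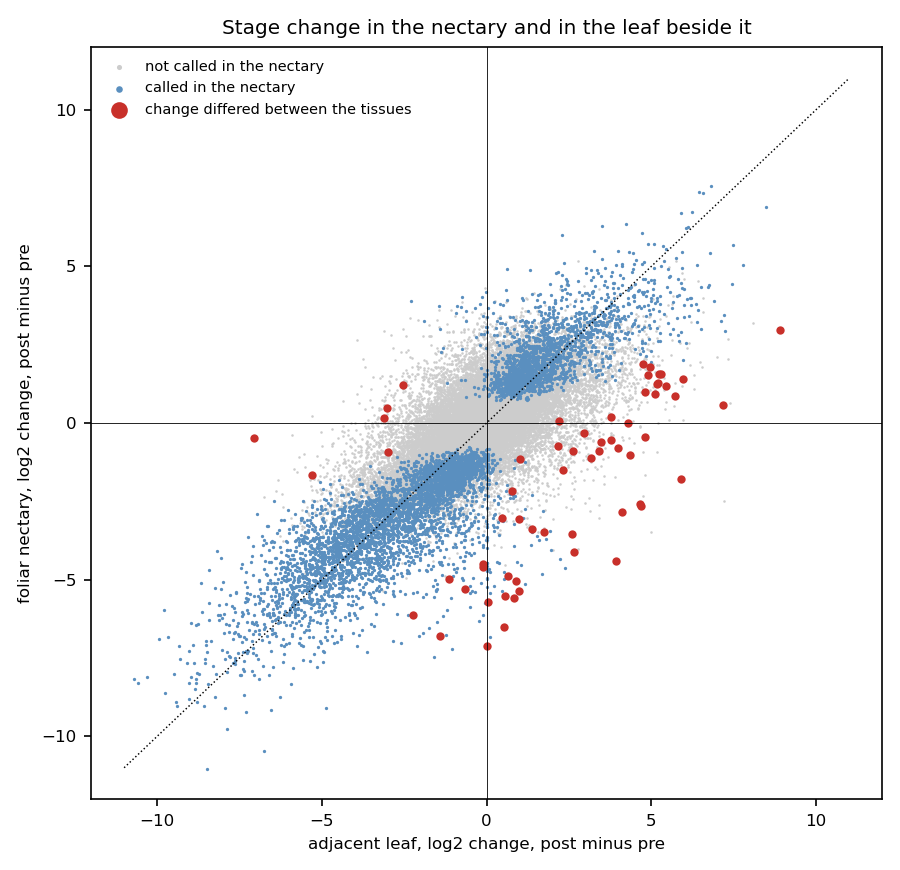
Change from pre-secretory to post-secretory in the adjacent leaf (x axis) and in the foliar nectary (y axis), both as log2 differences, for each of the 45337 genes tested; blue points are called in the nectary, red points are the 61 genes whose change differed between the tissues, and the dotted line marks equal change. Of the called nectary genes 61.97% were also called in the leaf, and 55 of the 61 red points lie below it.

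Of the 21 genes named below for this difference, all kept the call with the random block and 10 with the fixed one. Of the 9 genes that kept it with any sample left out, 4 kept it with the fixed block, namely LOC107927171, LOC107930584, LOC107930215 and LOC107915954, and abscisic acid 8'-hydroxylase 4 had an adjusted p of 0.075 there. Among these 9, nicotianamine synthase-like (LOC107927171), whose product carries iron and other metals, had nectary values of 1129 and 428 before secretion, 1329 during it and 135, 305 and 202 after it. In the leaf it rose from 6.89 and 0 through 37.9 to 68.7, 386 and 179. The tissues were thus far apart at the start and overlapped after secretion, with a difference of change of -7.69 (SE 0.99, limma adjusted p = 5.31e-05). The nectary change on its own was not called (-1.78, adjusted p = 0.0864).

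Abscisic acid 8'-hydroxylase 4 (LOC107894265), which inactivates abscisic acid, stood at 396 and 812 in the nectary before secretion, 371 during it and 45.7, 66.6 and 160 after it. The leaf went from 34.5 and 0.82 through 12.3 to 107, 105 and 228. The gene fell in the nectary by 2.83 and rose in the leaf by 4.10, a difference of -6.93 (SE 1.02, adjusted p = 0.000498). The nectary's own fall was lost without pre-secretory replicate 2 (adjusted p = 0.0886).

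L-asparaginase 2 (LOC107930584), which frees ammonium from asparagine, had the largest difference in the other direction. Its nectary values were 408 and 638, then 503, then 319, 359 and 434, with overlap between stages (-0.47, adjusted p = 0.70). The leaf dropped from 1436 and 881 through 180 to 3.82, 6.17 and 16.7. The nectary thus held a level that the leaf lost (difference 6.58, SE 0.95, adjusted p = 0.000498).

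An uncharacterized gene (LOC107938314) was at 110 and 173 in the pre-secretory nectary, 25.6 in the secretory one and 0 afterwards, and is listed at 0 in all leaf samples. The other genes of the 9 include an uncharacterized gene at 532 to 1340 in all nectary samples (LOC107930215), which went in the leaf from 46.5 and 6.55 through 45.0 to 219.5, 237 and 326. The remaining 4 were at 5.83 or less in every nectary sample and at 0.88 or less in the leaf before and during secretion, and are an uncharacterized gene (LOC107915954), a JUNGBRUNNEN 1 factor (LOC107918946), a dirigent protein (LOC107923463) and a receptor-like protein 12 (LOC107954410), with post-secretory leaf values of 24.2 to 88.2. They were chosen for naming after their values were seen, and the nectary call of LOC107918946 was lost in 4 of the 5 fits with a sample left out.

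The rule for named genes also took SPL9 (LOC107938840), a factor of the juvenile-to-adult transition, which had 87.7 and 127 before secretion, 234.5 during it and 102, 94.0 and 176 after it in the nectary, while the leaf fell from 208 and 265 to 42.9, 15.9 and 26.0 (difference 3.29, SE 0.58, adjusted p = 0.00602). Without nectary pre-secretory replicate 1 or leaf pre-secretory replicate 3 this call was lost, with an adjusted p of up to 0.109. A Rubisco-binding chaperonin subunit (LOC107906140) changed by -0.92 in the nectary and by -2.98 in the leaf. Its nectary call was lost with any one of the 5 samples left out, and its difference was called in 1 of the 10 fits with a sample left out. Cucumber peeling cupredoxin-like (LOC107940958) was at 0 to 25.8 in all nectary samples and rose in the leaf from 19.0 and 3.28 to 207, 213 and 282. The difference was kept in 3 of the 10 fits.

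**Figure D5:**
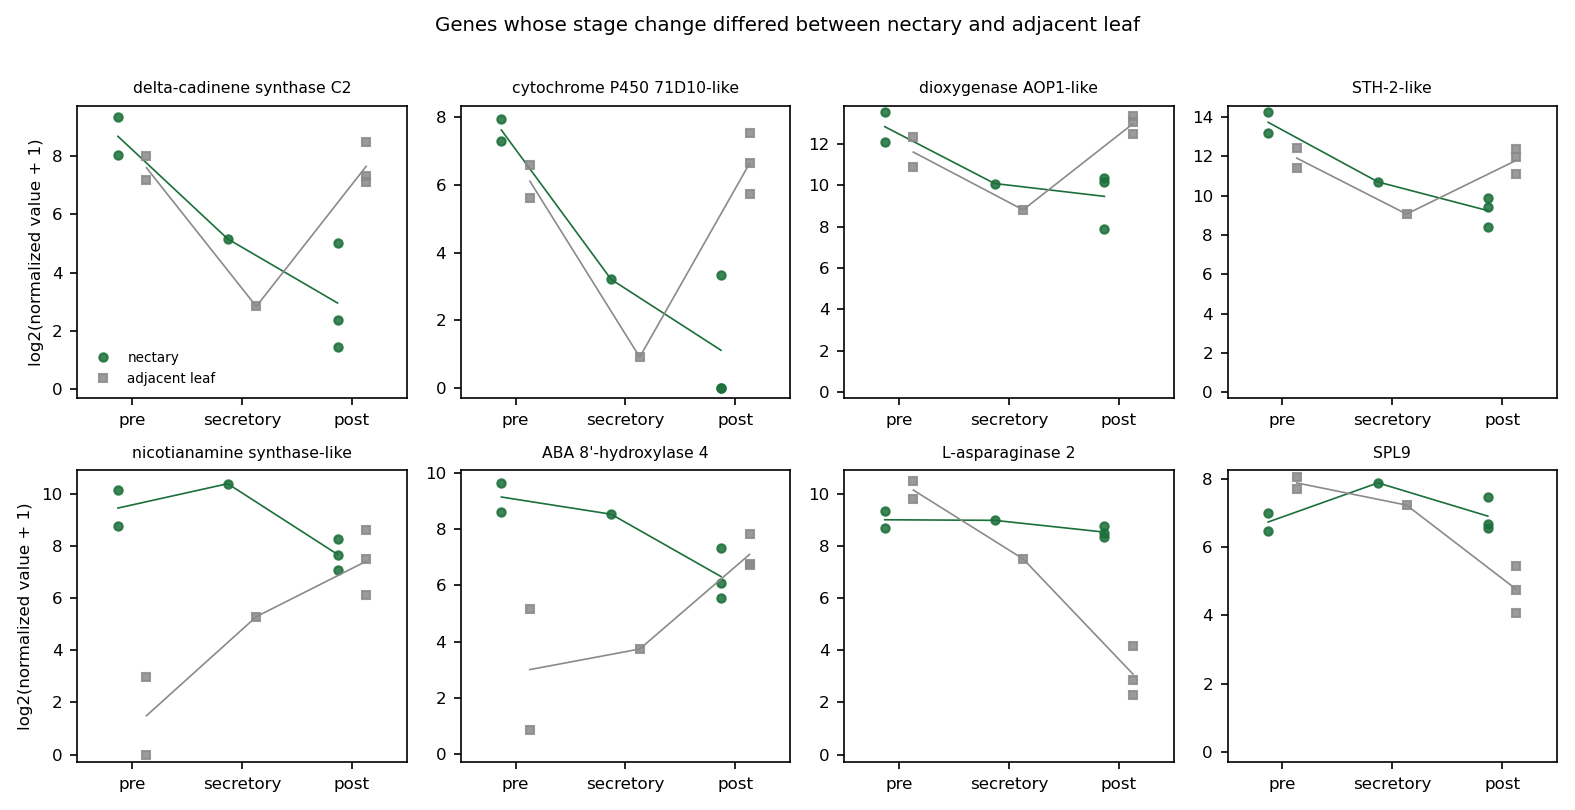
Values of 8 genes whose change differed between foliar nectary (green circles) and adjacent leaf (grey squares), as log2(normalized value + 1) in each RNA sample, by stage; lines join the means. The upper 4 genes are lower in every post-secretory nectary sample than in any pre-secretory one, while leaf values of both stages overlap or rise and the secretory leaf sample is the lowest of the leaf.

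The remaining differences include genes of terpenoid synthesis and others named for enzyme classes of that pathway. They were grouped here after the values were seen. Cotton leaves carry pigment glands that store gossypol and related terpenoids, made from farnesyl diphosphate by delta-cadinene synthase and then by cytochromes P450, a short-chain dehydrogenase, a 2-oxoglutarate-dependent dioxygenase and a glyoxalase-like enzyme. In the list of cadinene synthases and terpene synthesis 20 of 43 genes fell in the nectary and 4 rose (median -1.85), with 11 falls and 3 rises without pre-secretory replicate 1. In the leaf 12 fell and 9 rose (median -0.39). For 3 of its genes, all cadinene synthases, the difference was called.

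Delta-cadinene synthase C2 (LOC107903504) stood at 642 and 259 in the pre-secretory nectary, 34.7 in the secretory one and 4.23, 31.6 and 1.76 after secretion (-5.72, SE 0.87, limma adjusted p = 1.53e-05). The leaf had 256 and 145, then 6.17, then 137, 360 and 160, so that its stages overlapped (0.05, adjusted p = 0.99). The difference was -5.76 (SE 1.23, adjusted p = 0.0314) and was kept in 2 of the 10 fits with a sample left out. For the isozymes XC14-like (XP_016685055.1) and XC1 (LOC107920688) it was -6.78 and -5.22, kept in 2 and 4 of the fits, and both nectary falls were lost without pre-secretory replicate 1, that of XP_016685055.1 also without post-secretory replicate 3. Not every isozyme differed between tissues: XC14-like (XP_016685067.1) went from 632 and 164 to 0.85, 0 and 0 in the nectary (-8.04) and also fell by 7.44 in the leaf, and A-like LOC107925546 rose by 3.35 and 4.12.

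Summed over its 22 genes, cadinene synthase was at 2058 to 5018 in the pre-secretory nectary, 461 in the secretory one and 80 to 288 after secretion. In the leaf the sums were 1207 to 2378, then 93, then 1182 to 3657. Pigment glands belong to the leaf as well as to the midrib, and the share of gland cells in each sample is not known. Its part in the result was not tested.

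Other genes with the same pattern carry the names of enzyme classes found in gossypol synthesis, and were chosen after their values were seen. Cytochrome P450 71D10-like (LOC107897460) went from 246 and 158 through 8.26 to 0, 9.15 and 0 in the nectary, and had 96.5 and 48.3, then 0.88, then 100, 183 and 52.0 in the leaf (difference -7.04, SE 1.30, adjusted p = 0.0125). A dioxygenase named AOP1 (LOC107942044) went from 12117 and 4424 through 1087 to 1297, 1158 and 234 in the nectary, and from 5154 and 1891 through 449 to 8599, 10576 and 5822 in the leaf. For this gene the post-secretory leaf was above the pre-secretory leaf in every sample, although its own change was not called (1.37, adjusted p = 0.16). The momilactone A synthase-like dehydrogenase (LOC107928231) fell by 3.54 in the nectary and rose by 2.58 in the leaf. The secoisolariciresinol dehydrogenase-like gene (LOC107925690) fell by 5.52 in the nectary, with 0.55 in the leaf. Each of these 4 differences was lost in 4 or more of the 10 fits, among them that without nectary pre-secretory replicate 1. That fit also lost the nectary falls of AOP1 and the momilactone A synthase-like gene, with adjusted p of 0.0593 and 0.124. Whether these entries are the gossypol enzymes of those classes is not stated in the table.

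Pathogenesis-related protein STH-2-like (LOC107915337) and MLP-like protein 43 (LOC107918213), both of the family of small intracellular ligand-binding proteins, also differed between the tissues. STH-2-like had 19850 and 9326, then 1660, then 697, 946 and 332, against 5501 and 2687, then 534, then 4003, 5221 and 2167 in the leaf (difference -4.38, SE 0.84, adjusted p = 0.0163). MLP-like 43 had 35562 and 16033, then 5807, then 359, 414 and 274, and in the leaf 2012 and 1108, then 817, then 473, 273 and 244 (difference -3.88, SE 0.79, adjusted p = 0.0244). Nectary falls in both genes were kept with every sample left out, and the differences in 6 and 4 of the 10 fits.

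The bracteal nectary, an extrafloral nectary on the bract around the flower, was sampled with the same group sizes, 3 post-secretory and 2 pre-secretory. Its stages were defined by the flower, from the young bud to well after flower opening, while those of the foliar nectary follow the leaf. The intervals are therefore unlike. The change of the bract tissue beside the bracteal nectary was not set against this difference. The change differed between foliar and bracteal nectaries in 90 genes (0.199%), 33 higher (0.0728%) and 57 lower (0.126%) in the foliar nectary, and 3496 had an unadjusted p under 0.05. With a sample left out this count ranged from 20 (without foliar pre-secretory replicate 1) to 89, and scaling by column totals turned the split to 56 higher and 48 lower. The plasma membrane ATPase 1-like gene named above (LOC107892346) rose by 3.34 in the foliar nectary and by 1.06 in the bracteal one, where it went from 96.6 and 69.4 to 133, 187 and 204 (difference 2.28, SE 0.42, limma adjusted p = 0.00714). Both nectaries thus showed higher values of this pump after secretion, with a larger step in the foliar one. The bracteal change was not tested on its own. For single genes, calls of the foliar and bracteal difference were not followed with samples left out.

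ATHB-12-like (XP_016695114.1), a homeodomain factor induced by abscisic acid, was at 0 and 0 before and 217, 101 and 23.8 after secretion in the foliar nectary, and at 11.1 and 48.3 before and 0 in all 3 samples after it in the bracteal nectary (adjusted p of the difference 0.0172). Its foliar rise was lost without pre-secretory replicate 1 (adjusted p = 0.0697). The defensin-like gene (LOC107890541) is listed at 0 in every bracteal sample (adjusted p = 0.00626), and a xyloglucan endotransglucosylase (LOC107898803) that fell from 78.2 and 131 to 0, 5.83 and 0 was at 0.93 or less there. Asparagine synthetase-like XP_016734296.1 rose in the foliar nectary from 2.58 and 15.0 to 126, 112 and 123, against 3327 and 2728 before and 1993, 1766 and 1238 after secretion in the bracteal one (difference 4.89, SE 0.93, adjusted p = 0.00876). Aquaporin TIP1-1 (XP_016680708.1), chosen after its values were seen, fell in the foliar nectary from 11709 and 6876 to 848, 1397 and 1090, while the bracteal values were 10097 and 7169 before and 11184, 7090 and 8432 after secretion (difference -3.08, SE 0.62, adjusted p = 0.0183).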

How the data were processed

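RNA was read in 51 RNA samples of cotton nectaries and adjacent tissue, each sequenced in 2 runs. The deposited table gives, for 49663 protein entries and 102 columns, a whole-number signal. From the values, it behaves as scaled for length and rounded (in 6074 entries with a regular step, 97.69% of held-out values lay on it, against 55.01% by chance) and column totals differ, but the authors do not state this. The study's methods name BLASTN against a UTX-JGI cotton genome and a transfer to Arabidopsis genes; the table's rows are NCBI protein entries, and how these were made is not given in the sources used here. All its columns were used, with 0 left out. Runs were summed, entries of one cotton gene were summed (names from the file and from RefSeq, assembly Gossypium_hirsutum_v2.1; 41566 entries matched by accession or name), and values were divided by the upper quartile (percentile 75). Genes with at least 10 in at least 2 samples were tested with limma 3.58.1 (R 4.3.3) with a variance trend on log2(value + 1), with 1 coefficient per condition over all 51 samples. A call is an adjusted p (Benjamini-Hochberg) under 0.05 and 1.5-fold. Near-identical copies of the cotton subgenomes may share reads, so single members of such pairs are uncertain. Since reads are not recovered from the signal, depth behind a value is unknown.

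Named genes are the 8 largest rises and falls whose groups do not overlap and whose higher group averages 100 or more. Up to 3 called members of each list were added under the same conditions. So were up to 4 of the largest differences from the leaf in each direction, among called genes that average 100 or more in 1 of the 4 groups. Some of the genes the study names for nectar and the match of SWEET10, which its text does not name, complete them, with exceptions stated. The members and lists were chosen with earlier results of these data known. Alternatives covered the samples fitted, pseudocount, filter, scaling, run, summing of entries, replicate block, variance trend and each sample left out. Post-secretory foliar nectary and leaf samples of the same number deviated together (r = 0.23, 0.21 and 0.19 for the 3 pairs). The 1 pre-secretory pair gave r = 0.40, but with 2 samples in a group the deviations are mirror images. Nectary replicate 2 with leaf replicate 3 also gave 0.40, so that value cannot show a pairing. Calls, standard errors and adjusted p of the difference come from the fit without pairing unless a block is named. Pairing was used only in the fixed and random blocks of nectary with leaf. It rests on the sample descriptions and these correlations, and its fits were added after seeing the data. The fit was tested on simulated data. Tables and figures used Python 3.11.15, pandas 2.3.3, numpy 2.4.6 and matplotlib 3.10.9.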

Additional observations from a re-analysis of the deposited data

Results flagged for a closer look

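The change from pre-secretory to post-secretory differed between the foliar nectary and the adjacent leaf in 61 genes by limma's test of the difference itself. Among those named in the report, the nectary change minus the leaf change (log2) was -7.69 for LOC107927171, -6.93 for LOC107894265, 6.58 for LOC107930584, -7.12 for LOC107938314, -4.31 for LOC107930215, -5.24 for LOC107915954, -3.94 for LOC107918946, -4.86 for LOC107923463 and -4.56 for LOC107954410, the 9 genes that kept the call with any sample left out. It was 3.29 for LOC107938840, 2.06 for LOC107906140 and -7.23 for LOC107940958.

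For the genes described with the terpenoid pathway the difference was -5.76 for LOC107903504, -6.78 for XP_016685055.1, -5.22 for LOC107920688, -7.04 for LOC107897460, -4.75 for LOC107942044, -6.12 for LOC107928231 and -6.07 for LOC107925690. It was -4.38 for LOC107915337 and -3.88 for LOC107918213.

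The stage changes of foliar and bracteal nectaries, over unlike intervals, differed in 90 genes by the same kind of test. The foliar change minus the bracteal change was 2.28 for LOC107892346, -8.90 for LOC107890541, 10.97 for XP_016695114.1, 4.89 for XP_016734296.1, -5.28 for LOC107898803 and -3.08 for XP_016680708.1, fitted values that depend on the pseudocount where a group is listed at 0.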

How the results depend on the processing

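Against 6084 called genes in the nectary, fitting the 12 foliar samples alone gave 10533 and summing entries by Arabidopsis match gave 3028 of fewer features. With a sample left out the count was 1560 to 5453, the lowest without pre-secretory replicate 1. The leaf's 7065 became 11055 with the 12 foliar samples alone and 3164 to 6980 with a sample left out. The 61 genes that differed between the tissues became 33 with the 12 foliar samples alone, 331 with a pseudocount of 10, and 11 to 87 with a sample left out. The 90 genes that differed from the bracteal nectary became 308 with a pseudocount of 10 and 20 to 89 with a sample left out, alternatives chosen after seeing the data. Causes were not tested.

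With the replicate number as a block the nectary gave 4166 calls, the leaf 5796 and their difference 4. Of the 21 genes named for this difference 3 kept the call. Across stages the numbers are not said to mark the same plants. Deviations of same-numbered pre-secretory and post-secretory samples correlated at r = 0.23 and 0.02 in the nectary and 0.11 and 0.10 in the leaf. With 2 pre-secretory samples in a tissue their deviations are mirror images, and nectary replicates 2 before and 3 after secretion also gave 0.21. With the replicate number as a block of nectary with adjacent leaf, chosen after seeing the data, the difference gave 26 calls as a fixed term and 128 as a random effect.

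The share of called genes with the secretory sample between the stage means was 83.95% to 95.06% over the alternatives. Nectary changes of these genes turned sign: LOC107915954 (0.29 in run 2 alone, 0.25 by Arabidopsis match), LOC107938840 (-0.11 with the block), and, by Arabidopsis match, LOC107918946 (-1.27), LOC107923463 (-3.49), LOC107954410 (-0.08) and LOC107940958 (0.18). LOC107925546, which had risen, gave -4.54 by Arabidopsis match, since all cadinene synthases with that match are then summed. With a sample left out the change ranged from -1.08 to 0.01 for LOC107930215, from -1.15 to 0.29 for LOC107915954 and from -0.11 to 0.44 for LOC107938840 (0.01, 0.29 and -0.09 without pre-secretory replicate 1). Depth limits low values, but cannot be read from these files.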
